A study of Caenorhabditis elegans with 609 samples.

Results

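XZ1516 is a wild *Caenorhabditis elegans* strain, and the values described here are those of its 3 separately grown cultures, beside 606 cultures of the 207 other strains in the series. The cultures were chosen by their label, as those whose title begins with the name of the strain, and were compared with those of all other strains, averaged within each strain. The study sequenced polyadenylated RNA from wild strains, as whole hermaphrodites at the young adult stage, to map the genetic basis of expression variation across the species. Every strain was kept on agar plates with *Escherichia coli* as food and received no treatment. Among the other strains 193 had 3 cultures, 13 had 2 cultures and 1, JU2800, had 1 culture. They include N2, which the paper describes as the reference strain adapted to the laboratory. The labels give the strain, the stage and the sex, and neither genotypes nor places of isolation were used here. Hermaphrodites of a strain are close to isogenic, and the cultures of XZ1516 thus stand for 1 genotype.

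Wild *C. elegans* reproduce mostly by selfing, and strains can carry long-diverged haplotypes at parts of their genomes, above all on the outer arms of the chromosomes. Large gene families with roles in sensing the environment and in defence, such as the F-box, MATH and BTB, C-type lectin, nuclear hormone receptor and cytochrome P450 genes, are dense on those arms. Some haplotypes carry toxin-antidote pairs, in which a parent deposits a toxin in the embryos and only offspring that inherit the antidote survive. The authors quantified reads against transcriptomes that carried the known variants of each strain. They also removed transcripts in regions of extreme divergence from the strains concerned, because reads of such regions can align poorly. Those regions were not used here, so their part in the low values below was not tested.

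Depth placed XZ1516 inside the range of the other strains. The totals of estimated counts were 35325715, 17206461 and 30612930 in its cultures 1, 2 and 3, against 15461168 to 280262722 with a median of 28772489 in the cultures of other strains. The factors that put TPM on a common scale were 0.955 to 1.000 in XZ1516 and 0.386 to 1.303 in the others. The mean distance between cultures of the same strain was 47.3 in XZ1516, whereas the median over the other strains was 64.4. The 3 cultures were sequenced in 3 different pools, named 01, 03 and 05, together with 72, 78 and 80 cultures of other strains. By their labels these pools belong to the earlier of 2 years, as do those of 415 cultures of other strains, while the other 191 were in pools of the later year. Values within the pools of XZ1516 are given where they bear on a result. Levels are given as normalized TPM, a share of transcripts that takes transcript length into account. The level of a strain in TPM is the mean over its cultures, and coordinates are those of WBcel235. Differences are the mean of XZ1516 minus the median of the 207 other strain means on the scale of log2(normalized TPM + 0.5), which understates differences of genes with low values. The RNA came from whole animals, in which fewer cells of a type and less RNA per cell cannot be told apart.

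XZ1516 was singled out for its expression distance, and the distances are therefore given as a description. Over 16350 protein-coding genes and pseudogenes, its nearest neighbour was JU2862 at a Euclidean distance of 95.5 log2 units. The nearest neighbour of the other strains lay at a median of 55.9, and the next largest value was 94.2 in ECA363. In a neighbour-joining tree, the terminal branch of XZ1516 measured 61.8, compared with a median of 29.6 and 54.4 in NIC258, the next longest. The mean distance of XZ1516 to all strains was 113.0 and ranked 22nd of 208, while NIC258 had the largest, 146.5. XZ1516 thus had no close relative in expression, without being the strain farthest from the rest.

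**Figure D1:**
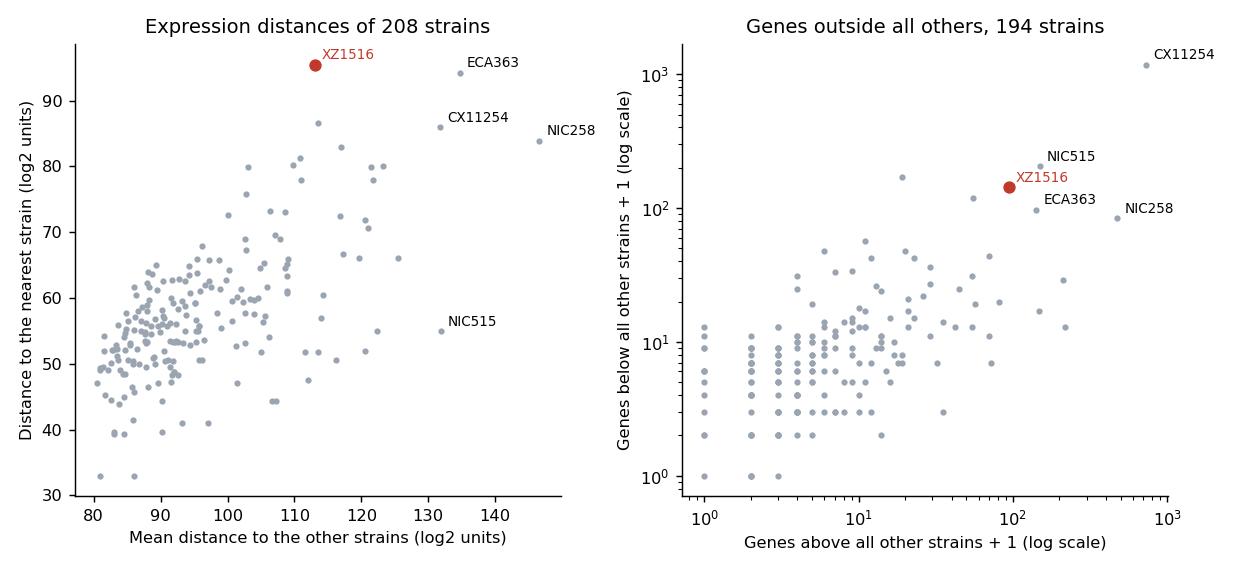
Left, mean distance of each of 208 strains to all others against its distance to the nearest strain, both in log2 units over 16350 genes. Right, number of genes with all cultures above, and all below, the means of all other strains, each plus 1 on log axes, for the 194 strains with 3 cultures. XZ1516 (red) lies at 113.0 and 95.5 on the left, the highest nearest distance, and at 93 genes above and 142 below on the right, where CX11254 reaches 727 and 1181.

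Counts over single genes described the same strain. All 3 cultures of XZ1516 lay above all 207 other strain means in 93 genes (0.569% of 16350) and below all of them in 142 genes (0.869%). By the same rule the other strains with 3 cultures had a median of 4 genes above and 6 genes below. XZ1516 ranked 12th of 208 for genes above and 4th for genes below. The rule is easier to meet with fewer cultures, and among the 194 strains with 3 cultures the ranks were 8th and 4th. CX11254 held the maximum of both counts, 727 and 1181. The median difference over all genes was 0.0047, close to 0.

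In the fit of XZ1516 against the other strains, 148 genes were called higher (0.905%) and 230 were called lower (1.41%), 378 of 16350 in all (2.31%). The quasi-likelihood test of edgeR took 1 sum of counts per strain, and genes were called at a Benjamini-Hochberg adjusted p under 0.05 over all 16762 genes and transposable elements tested. These genes made up the distance that set XZ1516 apart, so the calls describe its size and no p is given for any of them. Since XZ1516 enters as 1 strain, the spread comes from the other strains and XZ1516 is assumed to vary like them. Pseudogenes made up 30 of the higher and 27 of the lower calls, among 746 tested. In all 3 pools the XZ1516 culture lay above the mean of the other cultures for 148 of the 148 genes called higher, and below it for 229 of the 230 called lower. The calls came from these same cultures, so this agreement in sign was nearly fixed in advance. Against all cultures of other strains, whatever their pool, the numbers were also 148 and 229. Of the 378 called genes, 292 were also called in the same direction by limma on strain means, which called 392.

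The genes called higher in XZ1516 included a thaumatin gene, a ferritin gene, a peptidase gene and a sperm gene. *thn-1*, a member of the thaumatin family, had 42.2, 45.1 and 45.4 normalized TPM in the 3 cultures. The other strain means lay between 0.132 and 6.32, around a median of 0.726. The groups did not overlap, and the difference was 5.24. *ftn-1* codes for a ferritin that stores iron in the intestine, and its cultures stood at 99.1, 99.6 and 101.2 TPM. Elsewhere its median was 9.55 TPM, and it reached 53.2 in ECA812. *dpf-1*, of the dipeptidyl peptidase family, stood at 21.16, 20.97 and 15.47 TPM against a median of 1.74 and a maximum of 3.59 in the other strains. *ssp-16*, which codes for a small sperm-specific protein, was at 374.5, 302.5 and 307.4 TPM in XZ1516, above a maximum of 166.2 in EG4724. It shared a stretch of 46.8 kb on chromosome I (6102067 to 6148836) with *trak-1*, *ttr-55* and *ttr-58*, all called higher. *ttr-55*, a transthyretin-related gene, had 2.56 to 4.03 TPM in XZ1516, and no other strain exceeded 1.18.

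Several genes high in XZ1516 had low levels in most strains. C29F3.3 (chromosome V) was at 14.8, 14.6 and 13.5 TPM, whereas elsewhere its median was 0.448 and its maximum 3.94. W07B8.4 had 10.59, 14.65 and 18.01 TPM against a median of 0.332. The files give no class name for either gene. F43D2.3, with 27.8, 21.8 and 22.4 TPM, exceeded a maximum of 2.24 in the other strains. In total 17 genes (0.104% of 16350) had at least 5 TPM in every XZ1516 culture and a median under 0.5 TPM over the other strains, the 10th largest number among 208 strains and the 7th among those with 3 cultures. In 3 of these, C29F3.3, W07B8.4 and the pseudogene K10G4.13, no other strain mean reached 5 TPM. By contrast, C39B5.10 with 389.4, 335.0 and 268.7 TPM was also at 5 TPM or more in 44 other strains.

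The genes lower in XZ1516 included a lectin gene, a homolog of telomere-binding proteins, a ribonuclease H gene and a yolk gene. *clec-47*, a C-type lectin-like gene on chromosome V, had 0.153, 0.491 and 0.0888 TPM. The other strains held 4.38 to 315.9 TPM (median 38.3), and the difference was −5.53. *pot-3* codes for a homolog of the POT proteins that bind single-stranded telomeric DNA. It was at 0, 0.178 and 0 TPM, whereas every other strain had at least 2.80 TPM and the median was 17.3. The gene lies near the right end of chromosome III (13780215 to 13781133), and its nearest neighbours to the left, *mdt-29* and *pdr-1*, differed from the other strains by 0.06 and −0.29. K08E3.2, whose start lies at −32.8 kb from that of *pot-3*, was called higher. *rnh-1.3*, of the ribonuclease H family, was at 1.04, 0.371 and 0.503 TPM in XZ1516 and at 9.91 to 236.5 TPM elsewhere. K08D8.3 (chromosome IV) had 0.172, 0.169 and 0.129 TPM against 5.43 to 45.4 TPM. All 4 genes were separated from every other strain, and none of the 207 strain means fell under 0.5 TPM for *clec-47*, *pot-3*, *rnh-1.3* or K08D8.3.

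**Figure D2:**
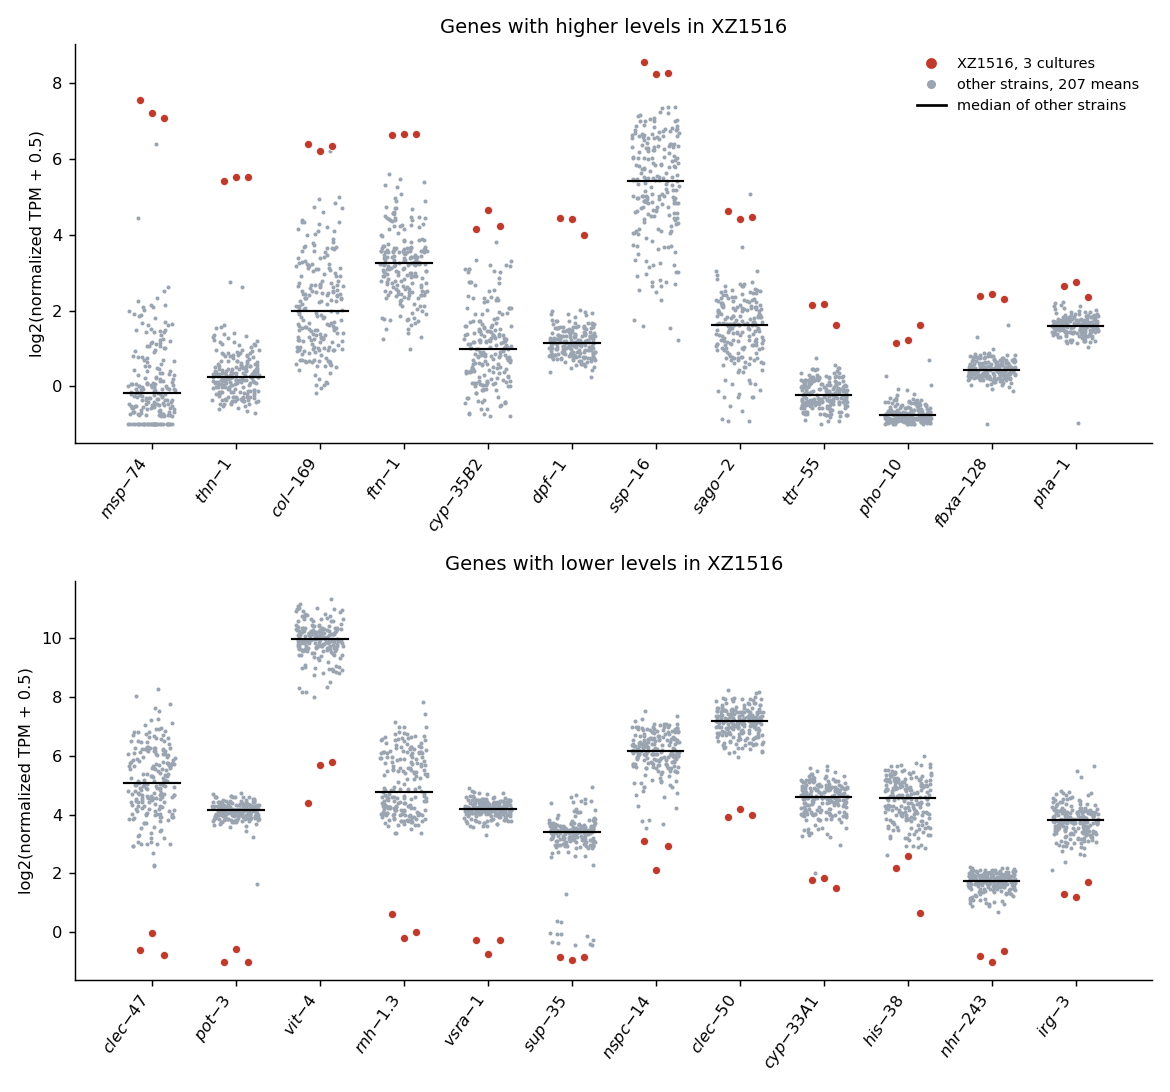
Levels of 12 genes with higher and 12 with lower values in XZ1516, as log2(normalized TPM + 0.5). Red points are the 3 cultures of XZ1516, grey points the means of the 207 other strains and black bars their median. Red lies outside all grey points for most genes. The exceptions are *sago-2* and *col-169*, where ECA363 and NIC258 reach or enter the range of the red points.

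The *sup-35* and *pha-1* pair stood out on both sides. *sup-35* codes for the toxin and *pha-1* for the antidote of a selfish element on chromosome III, whose toxin is deposited by the mother. *sup-35* (WBGene00012976, 11115754 to 11119226) was at 0.0582, 0.0253 and 0.0551 TPM in XZ1516. Elsewhere the median was 10.2 TPM, and ED3012 was the lowest with 0.240. *pha-1* (WBGene00004010, 11131775 to 11136688), in contrast, was at 5.79, 6.25 and 4.66 TPM. All 3 values lay above the 207 other strains, whose median was 2.54 and whose maximum, in JU323, was 4.25. The difference of *pha-1* was 1.00, and the gene was not called in the fit. XZ1516 thus had the lowest toxin and the highest antidote transcript level of the 208 strains.

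Low *sup-35* was not particular to XZ1516, whereas in none of the other strains low for *sup-35* did *pha-1* or *fbxa-128* reach the levels of XZ1516. In 9 other strains the *sup-35* mean was under 0.5 TPM, from 0.240 to 0.468. DL238, one of them, also had 0.0115 TPM of *pha-1* and 0 TPM of *fbxa-128*. In the other 8 strains *pha-1* ran from 1.98 to 2.74 TPM, near the median of all strains. *fbxa-128*, an F-box gene next to *pha-1*, was at 4.71, 4.97 and 4.42 TPM in XZ1516 and was called higher. No other strain mean exceeded 2.60 TPM. *linc-76*, a long non-coding RNA between the pair, was at 0.0318, 0.0340 and 0.0575 TPM against a median of 0.576. Among the 9 other strains low for *sup-35*, only DL238 at 0.0297 and ECA363 at 0.146 TPM were under 0.4 TPM for *linc-76*. The pseudogene Y48A6C.2, not called, which overlaps the end of *sup-35*, had 0.794, 0.437 and 1.17 TPM against a median of 6.03. Both genes lie on the same strand, so strand could not separate their reads in the overlap. No source states that the counting used strand, and values of overlapping genes cannot be told apart. No gene on either side of this stretch was called. *hmt-1*, at −24.2 kb from *sup-35*, differed by −0.33, and *pola-1*, at 26.7 kb, by 0.10. W09D6.1, at −46.9 kb, was at the upper end of its range with 12.7, 13.5 and 14.3 TPM against a median of 7.38 and a maximum of 13.6. The other toxin-antidote pair, *peel-1* and *zeel-1* on chromosome I, was low in XZ1516 and in many strains. *peel-1* had 0.409, 0 and 0.274 TPM against a median of 0.897, and *zeel-1* stayed under 0.1 TPM in XZ1516 with a median of 0.0456 in the others.

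Argonaute proteins bind small RNAs and guide them to matching transcripts, and 2 Argonaute genes moved in opposite directions. *vsra-1* (WBGene00007297, chromosome I, 9673664 to 9678557) was at 0.326, 0.101 and 0.342 TPM. All other strains lay between 9.52 and 29.4 TPM with a median of 18.1. The SD over the other strain means was 0.26 on the log2 scale, and the difference of XZ1516 was −4.63. The neighbours *rpl-24.2* and *ikb-1* differed by 0.01 and −0.04. A second gene called lower, *rnh-1.3*, lay 36.4 kb to the right of *vsra-1*. Between them, the pseudogene C04F12.6 had 5.44, 4.69 and 4.42 TPM against a median of 0.619 and a maximum of 17.7, and C04F12.12 had a difference of 1.61. Neither was called. *sago-2*, an Argonaute of the secondary small RNA pathways, had 23.97, 21 and 21.66 TPM in XZ1516. The median of the other strains was 2.63, and only ECA363 was higher, with 32.95 TPM. *wago-2*, annotated as a pseudogene of the same family, and *eri-6*, a gene of the endogenous small RNA pathway, were at 36.3 to 41.0 and 18.6 to 20.6 TPM, with medians of 19.8 and 8.94, and were not called. Of 66 small RNA genes that passed the filter, 1 was called higher (*sago-2*) and 1 lower (*vsra-1*), against 0.905% and 1.41% of all genes, and the median difference was −0.01. *drh-2*, a pseudogene of the Dicer-related helicase family that is not in that list, was at 0.102, 0.1003 and 0.0989 TPM against a median of 5.12 and was called lower. Its mean was under 0.5 TPM in 6 other strains.

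**Figure D3:**
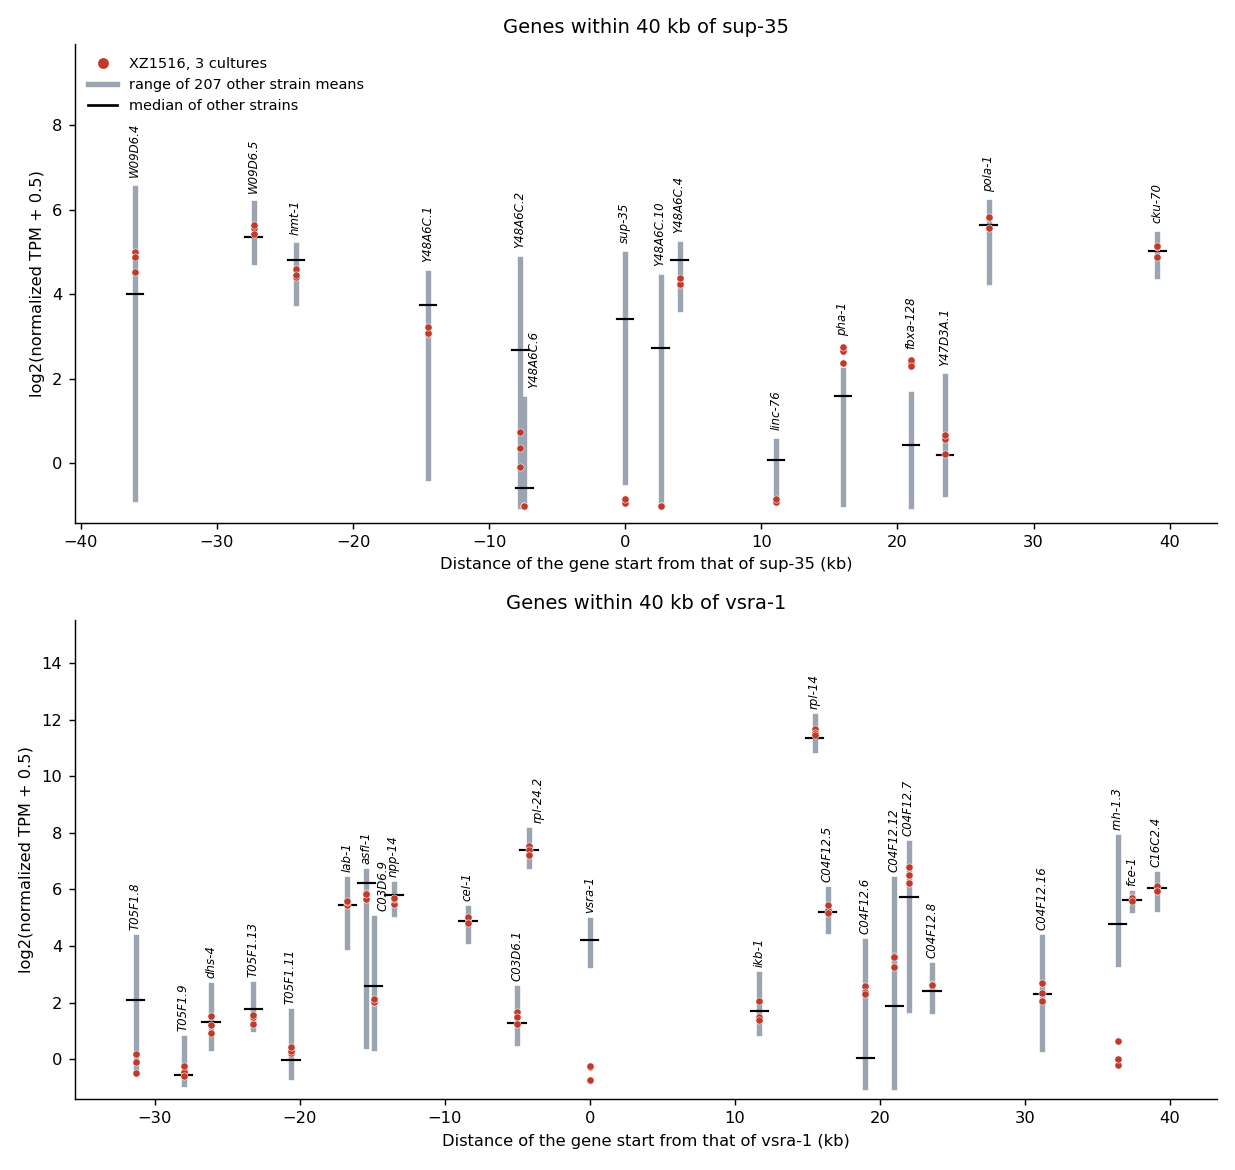
Levels of genes within 40 kb of *sup-35* and of *vsra-1*, plotted by the distance of each gene start in kb. Red points are the 3 cultures of XZ1516, grey bars the range of the 207 other strain means and black ticks their median. *sup-35* and *linc-76* are low while *pha-1* and *fbxa-128* exceed the grey range. *vsra-1* and *rnh-1.3* lie below it, and most other genes are near the median. C04F12.6 lies above its median and T05F1.8 below its own.

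A set of 54 genes (0.33% of 16350) was nearly absent from XZ1516, with under 0.5 TPM in every culture and a median of at least 5 TPM over the other strains. By the same rule NIC515 had 83 and ECA745, with 2 cultures, had 55, and no other strain had more than XZ1516. The median of the other strains with 3 cultures was 13. In 24 of the 54 no read was assigned in any XZ1516 culture. A count of 0 allows up to 3 counts in each culture, which covers counting error only. In 7 of the genes no other strain mean was under 0.5 TPM. These were *clec-47*, *pot-3*, *vsra-1*, K08D8.3, W04E12.7 and the adjacent ZK637.6 and ZK637.18 on chromosome III. In 24 genes 1 to 10 other strains were also under that limit, and in 23 more than 10 were. The widest shared was *bath-4*, under 0.5 TPM in 82 other strains. The *pud* genes, named for proteins raised in insulin receptor mutants, belong to the shared kind. *pud-1.1* was at 0 in all XZ1516 cultures against a median of 124.1 TPM, and 50 other strains were under 0.5 TPM. NIC251 shared the most, with 22 of the 54 genes, while the median strain shared 5.

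Sperm and yolk genes gave large differences in single members and common levels in sum. *msp-74*, a major sperm protein gene, had 188.6, 146.4 and 135.7 TPM in XZ1516. The median of the other strains was 0.517, and ECA363 came nearest with 85.7 TPM. *msp-36* went the other way, with 0, 2.86 and 0.154 TPM against a median of 247.9, as did *msp-77* with 0.999, 3.01 and 0.335 TPM against 194.0. For these 2 genes 5 other strains and 1 other strain were lower than XZ1516. The *msp* genes are near-identical copies, so estimated counts can be split among them, and the values of single members are uncertain. Their sum in XZ1516 was 6032 TPM, against a median of 4757 and a range of 155.9 to 17470 in the other strains, of which 78 were higher. Of 31 *msp* genes 1 was called higher and 2 lower, against 0.905% and 1.41% of all genes. None of 28 *spe* genes, which act in sperm formation, was called, but 27 had positive differences with a median of 0.33.

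*vit-4*, a yolk gene of the adult intestine, was at 20.7, 51.5 and 55.3 TPM in XZ1516 and at 256.3 to 2655 TPM in the other strains, with a median of 1035. *vit-3* and *vit-4* are near-identical neighbours on chromosome X, and *vit-3* was at 1231, 1496 and 1549 TPM against a median of 1020. The sum of both was 1252, 1548 and 1604 TPM in the cultures of XZ1516 against a median of 2095, and 164 other strains were higher. *vit-1*, *vit-2*, *vit-5* and *vit-6* differed by 0.51, 0.10, −0.14 and 0.13. The summed yolk transcripts, 10620 TPM, lay near the median of 10730. In 16 oocyte and eggshell genes none was called, against 0.905% higher and 1.41% lower of all genes, and the median difference was 0.12.

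Most cuticle collagen genes had positive and most histone genes negative differences, although few members were called. Of the collagen genes that passed the filter 115 had positive and 13 negative differences with a median of 0.79, while over all 16350 genes 8301 were positive with a median of 0.0047. Within the pools of cultures 1, 2 and 3, the medians were 0.85, 0.65 and 0.26, with 13, 20 and 48 genes negative. Calls were 2 higher (*col-94* and *col-169*) and none lower, against 0.905% and 1.41% of all genes. *col-94* had 485.5, 482.0 and 560.7 TPM against a median of 125.4 and a maximum of 423.7. *col-169* had 83.2, 73.2 and 80.8 TPM against a median of 4.24, and NIC258 came next with 76.1. The sum over the collagen genes was 50170 TPM in XZ1516, and 51 other strains were higher. *col-117* went against the group, with 0.224, 1.301 and 0 TPM and a median of 36.1 in the others. Of 63 histone genes, whose products package DNA, 52 had negative differences with a median of −0.84, and 6 were called lower and none higher. Within the pools 49, 47 and 52 of the histone genes had negative differences. *his-38* was at 4.01, 5.55 and 1.07 TPM, below the range of 6.27 to 63.9 TPM in the others. *his-3*, *his-31*, *his-32* and 2 identical entries of *his-45* were also called. Many histone transcripts lack a poly(A) tail and many genes are near-identical, so levels in poly(A) RNA are uncertain.

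No tissue marker was called. This held among 10 germline, 8 intestine, 7 body wall muscle, 6 pharynx, 9 neuron and 6 hypodermis markers. Over all genes 0.905% were called higher and 1.41% lower, so lists this small would hold few calls or none. The summed intestine markers were 3972 TPM against a median of 3055, with 19 strains higher, and *asp-1* held most of the gap with 2727 against 1844 TPM. The body wall muscle markers summed to 2867 against 2453 TPM. The 6 hypodermis markers, which are collagen genes themselves, all had positive differences, with a median of 0.35 and a sum of 1804 against 1603 TPM. Within the pools their median differences were 0.38, 0.09 and −0.52, so that the direction was not shared by the pool of culture 3. The summed pharynx markers ran from 49.1 to 121.4 TPM among the cultures, lowest in culture 2, where *myo-2* was at 3.32 TPM against 14.99 and 13.5 in cultures 1 and 3. *mtl-2*, an intestinal metallothionein, had 5.65, 1.32 and 2.66 TPM against a median of 17.6, and its mean was below every other strain. The part of these shifts in the collagen and histone values was not tested. Of 81 ribosomal protein genes 79 had positive differences, with a small median of 0.13 and no calls. Within the pools of cultures 1, 2 and 3 their medians were 0.37, 0.06 and 0.07. The 12 protein-coding genes of the mitochondrial genome had a median difference of −0.32, with no calls. Their medians within the pools of cultures 1, 2 and 3 were −0.80, −0.03 and −0.46. In the pool of culture 2, 6 of these genes were above and 6 below 0.

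Over all gene lists described here, 1620 members passed the filter, each counted once, of which 21 were called higher and 47 lower. Many of the calls were in the large environmental gene families, which also hold many of the members. Beside the background of 0.905% and 1.41%, the F-box genes had 2 higher and 8 lower of 287. Their summed level was 565.7 TPM against a median of 678.1, and 205 of the 207 other strains were higher. *fbxa-72* was at 1.07, 0.989 and 0.810 TPM against a median of 19.8. *fbxa-146* was listed at 0 in all 3 cultures, while no other strain mean was under 1.05 TPM. The MATH and BTB genes, which code for adaptors of ubiquitin ligases, had 4 higher calls and no lower one among 95, with a median difference of −0.35. The called genes *math-34* and *bath-13* had 5.26 to 6.11 and 4.70 to 5.90 TPM, with medians of 0.499 and 0.490. *bath-2*, *bath-4* and *bath-5* were at 0 in XZ1516, as in many strains, and were not called.

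**Figure D4:**
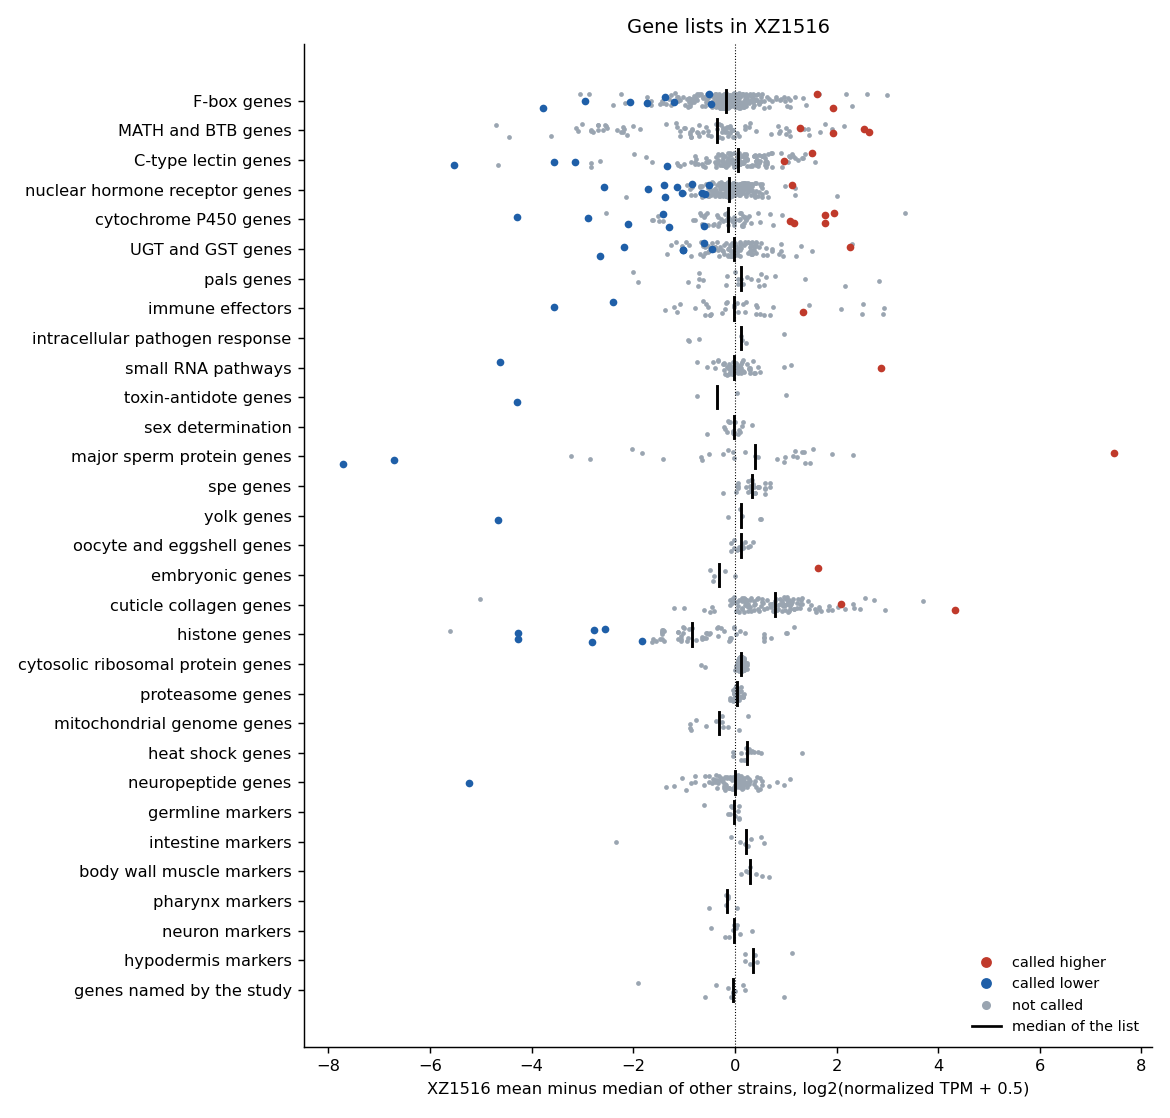
Differences of the members of each gene list, as XZ1516 mean minus the median of the other strains on log2(normalized TPM + 0.5). Red and blue points are genes called higher and lower, grey points genes not called and black bars the median of a list. The collagen genes lie mostly to the right (median 0.79) and the histone genes to the left (−0.84), while most other lists are centred near 0.

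Cytochrome P450 enzymes oxidize foreign and endogenous compounds, and 5 of 69 were called higher and 6 lower, against 0.905% and 1.41% of all genes. The *cyp-35* group, known for induction by foreign compounds, was split. *cyp-35B2* stood at 17.4, 24.7 and 18.1 TPM above a maximum of 13.6 in JU2800 and was not called. *cyp-35A1* was called higher at 1.57, 1.93 and 1.57 TPM, and the mean of QX1791 lay within that range. *cyp-35A3*, with 0.135, 0 and 0 TPM against a median of 10.9, *cyp-35B1*, at 0 in all cultures, and *cyp-34A6* were called lower. *cyp-35C1* had 1.39 to 2.11 TPM against a median of 13.98. *cyp-33A1* was at 2.97, 3.13 and 2.31 TPM against 3.61 to 50.5 TPM. Copies in this family resemble each other, and shares of reads between them are uncertain. The glucuronosyl and glutathione transferase genes, which conjugate such compounds, had 52 positive and 55 negative differences, and among these genes 1 was called higher and 6 lower, beside the same background. *ugt-67* was at 3.38, 1.78 and 3.11 TPM against a median of 0.166, and *ugt-64* at 4.05, 5.54 and 3.61 TPM against 31.1.

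Nuclear hormone receptor genes, which code for ligand-regulated transcription factors, had 1 higher and 10 lower calls among 196, against 0.905% and 1.41% of all genes. All 11 of the called genes lay on chromosome V. That chromosome also held 100 of the 230 lower and 53 of the 148 higher calls over all genes. How many of the 196 tested receptor genes lie there was not counted. *nhr-243* was at 0.0715, 0 and 0.141 TPM, and no other strain mean was under 1.10 TPM. *nhr-230*, the higher one, had 4.18 to 5.42 TPM against a median of 1.96. Among 146 C-type lectin genes 2 were called higher and 4 lower. *clec-50* was at 14.7, 17.8 and 15.2 TPM against 62.7 to 305.4 TPM, and *clec-53* was higher at 16.08 to 17.2 TPM against a median of 5.59. Of 39 immune effector genes *spp-8*, a saposin-like gene, was called higher, with 52.2 to 62.1 TPM against a median of 21.9. *clec-85* and *irg-3*, an infection response gene, were called lower, the latter with 1.99, 1.77 and 2.79 TPM against 3.83 to 51.4 TPM. The lysozyme genes *ilys-2* and *ilys-3* were at 14.3 and 11.3 TPM or more with medians of 2.03 and 1.41, and were not called. *nlp-28*, of a cluster of epidermal antimicrobial peptides, was called lower with 0, 1.05 and 0.523 TPM against a median of 36.3. None of 25 *pals* genes and none of 7 genes of the intracellular pathogen response was called.

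The lists that follow are small, and over all genes 0.905% were called higher and 1.41% lower, so few calls or none would be found. None of 18 sex determination genes was called, and their differences ran from −0.55 (*fem-3*) to 0.33 (*tra-1*). *end-3*, a GATA factor of the embryonic endoderm, was the only one called of 6 embryonic genes, with 1.32, 1.90 and 2.07 TPM against a median of 0.224. Of 11 genes that the study examined, none was called. The largest differences among them were −1.91 in *sqst-5*, with 0.258, 0.277 and 1.05 TPM against a median of 3.26, and 0.97 in *ets-4*. The heat shock genes had no calls among 16, and *hsp-70* had 45.4 to 61.4 TPM against a median of 20.7.

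The consensus sequences of transposable elements were no part of the distances. Their values come from the same cultures of a strain singled out for its divergence, so their tests, like those of the non-coding genes below, are not independent of that choice. Some called non-coding genes also lie beside called coding genes. Of the elements that passed the filter 3 were called higher (2.88%) and 2 lower (1.92%) in the fit of edgeR. The shares among protein-coding genes and pseudogenes were 0.905% and 1.41%, so the share of elements called lower was near that background. With so few called elements the shares are a description, and their difference from the background was not tested. An unadjusted p under 0.05 was found for 19 elements. TIR9TA1, a DNA element, was at 12.79, 11.2 and 16.8 TPM in XZ1516. Elsewhere the median was 3.15 and the maximum 12.5 TPM in ECA777, the log2 fold change was 2.03 and the adjusted p by edgeR was 0.000866. MARINCE1, of the Tc1 group of mariner elements, had 2.72, 1.80 and 2.52 TPM against a median of 0.780. Only ECA705 was higher, at 2.77 TPM (log2 fold change 1.56, adjusted p by edgeR 0.000994). Chapaev_2 had 0.727, 0.388 and 0.590 TPM against a median of 0.1, with a log2 fold change of 2.43 and an adjusted p by edgeR of 0.00162. The highest other strain mean was 0.468 TPM, so that culture 2 lay within the range of the other strains. All 3 called higher were DNA transposons and were called in each of 12 alternative fits. Mariner2, another mariner element, was lower at 0.955, 0.264 and 0.482 TPM. Every other strain had at least 1.10 TPM, the log2 fold change was −2.47 and the adjusted p by edgeR was 0.0345. It was not called in 5 of 12 alternatives. CER12, an LTR retrotransposon of the Pao group, had 0.0782, 0 and 0 TPM against a median of 0.553 (adjusted p by edgeR 0.0116), and 9 of 11 alternatives called it. These values rest on 1, 0 and 0 counts. The mean of JU394 was lower still, and 88 other strain means were also under 0.5 TPM. Without culture 2 the number of elements called lower was 1. Within the pools the median differences of the 3 elements called higher were 1.29, 0.89 and 1.24, and those of the 2 called lower −1.19, −1.53 and −1.50. The elements were called from these same cultures, and the values are a description. Over all elements 42 had positive and 62 negative differences, with a median of −0.03.

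Genes annotated as neither protein-coding nor pseudogene were likewise not used in the distances. Of these genes 3 were called higher (0.974%) and 14 lower (4.55%), with 51 at an unadjusted p under 0.05. Beside the background of 0.905% and 1.41%, the share called higher was near that of protein-coding genes and pseudogenes. The share called lower was larger, and this difference was not tested. F09E10.15, a non-coding RNA on chromosome X (1506302 to 1506390), was listed at 0 in all 3 cultures. Elsewhere the median was 267.5 TPM and the maximum 1768, and only ECA363 and XZ1515 were also under 0.5 TPM (adjusted p by edgeR 7.25e-07). T05E11.9 (chromosome IV) was also at 0 in all cultures, against a median of 28.2 TPM, with 4 other strains under 0.5 TPM (adjusted p by edgeR 0.000729). ZK384.7 was at 0 against a median of 6.24 TPM (adjusted p by edgeR 0.00186). No fold change is given for these 3 genes, since it would rest on a count of 0. C04G2.14, with 0.193, 0 and 0.150 TPM, was below the lowest other strain at 0.603 TPM (adjusted p by edgeR 9.57e-06). It lies on chromosome IV inside the same 44.8 kb as *msp-36* and *gst-3*, both called lower. *linc-76*, described above beside *sup-35*, had an adjusted p by edgeR of 4.78e-07 and a log2 fold change of −3.82. *linc-15* and C49F5.11, whose ends lie within 1 kb of each other on chromosome X, were both lower, at 0.494 to 1.38 and 2.74 to 5.85 TPM against medians of 8.85 and 43.1. The values of C49F5.11 rest on 3, 1 and 4 counts, and ECA745 was lower, at 1.12 TPM. T21B4.21 (chromosome II) had 14.6, 48.4 and 26.1 TPM against a median of 130.7 and a minimum of 28.2, so that culture 2 overlapped the other strains (adjusted p by edgeR 0.00253). Y108G3AL.10 (chromosome V) was at 0 in all cultures, and no other strain mean was under 0.459 TPM (adjusted p by edgeR 7.29e-05). The other 5, B0222.10, *linc-56*, Y43F8C.18, Y48B6A.17 and Y7A9A.79, had medians under 3 TPM in the other strains. In every pool all 14 lay below, and the 3 called higher lay above, the mean of the other cultures. Since the calls came from these same cultures, this is a description only.

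Among the 3 non-coding genes called higher, F54F11.6, a small nucleolar RNA, had 58.6, 263.5 and 49.0 TPM, of which culture 2 was far above the others. The other strains had a median of 5.72 TPM. JT11398 had the highest mean, 89.4 TPM, but lay below all 3 cultures by its mean on the log2 scale, and the adjusted p by edgeR was 8.22e-06. *linc-7* was at 89.4, 108.1 and 89.1 TPM, above all strains, the next being ECA745 with 85 (log2 fold change 1.57, adjusted p by edgeR 0.037). It was not called in 3 of 12 alternatives. Without culture 2 the number called higher was 1. K07C10.3 had 27.2 to 36.2 TPM against a median of 6.96, was exceeded by NIC274 alone and was not called in 7 of 12 alternatives. Small RNAs without a poly(A) tail are captured unevenly in such libraries.

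**Figure D5:**
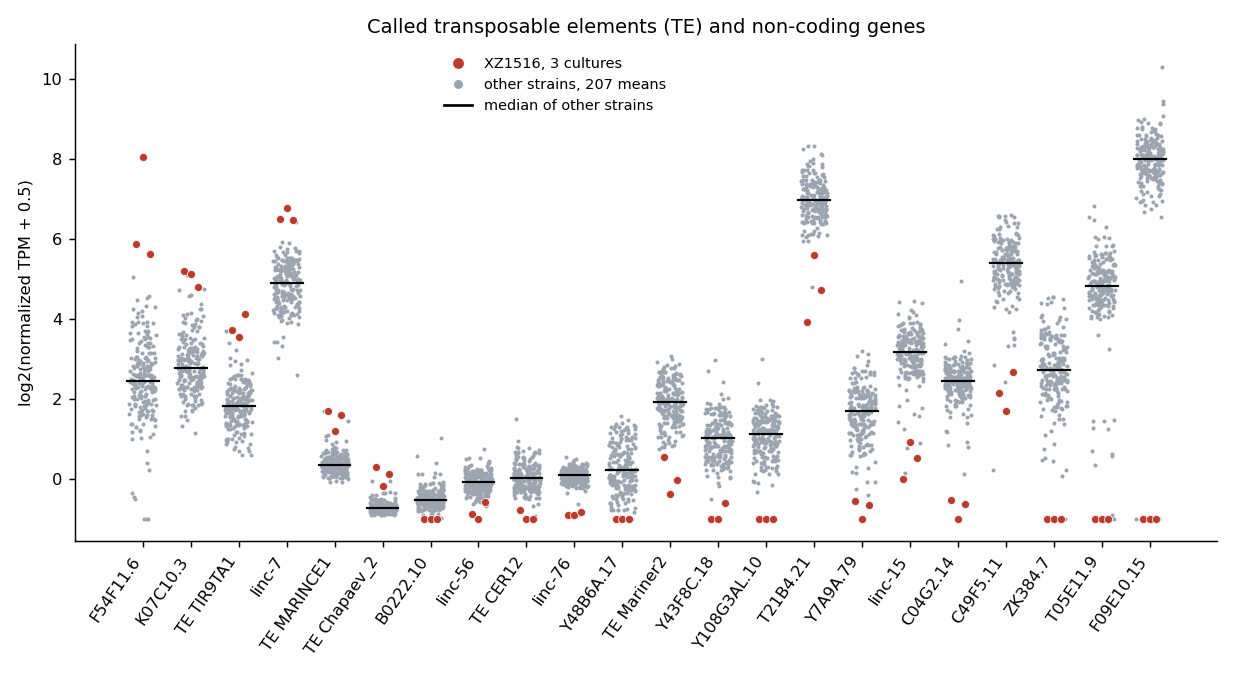
Levels of the 5 transposable elements (TE) and 17 non-coding genes called in XZ1516, as log2(normalized TPM + 0.5), ordered by difference. Red points are the 3 cultures of XZ1516, grey points the 207 other strain means and black bars their median. Several genes are at 0 TPM (−1 on this scale) in all 3 cultures, and 1 culture of F54F11.6 lies far above the other 2.

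Called genes lay along all chromosomes, with the most on chromosome V. It held 100 of the 230 lower calls (3.03% of the genes tested there) and 53 of the 148 higher calls (1.61%), against 1.41% and 0.905% over all genes. The outer 25% at each end of the nuclear chromosomes held 54.8% of the lower calls, 46.6% of the higher calls and 64.8% of the 54 nearly absent genes, whereas 42.4% of all tested genes lay there. These shares describe the calls and were not tested. With gaps of at most 50 kb, 14 groups of at least 4 called neighbours were found, and 11 of them were on chromosome V. On chromosome V at 20458654 to 20476061, all 5 tested genes were called, B0250.3 and B0250.4 higher and B0250.7, B0250.8 and B0250.12 lower. At 15471329 to 15511421, all 4 tested genes were called, with *dpf-1* higher and C06B8.2, *nhr-151* and C06B8.7 lower. At 13734309 to 13751891 on the same chromosome, 4 of 5 were called, with F35E12.9 at 73.2, 63.1 and 50.8 TPM against a median of 5.28. The group of 3939032 to 4024482 held *cyp-35A3*, *cyp-35B1*, *cyp-34A6*, *nlp-28* and *srw-89*, all lower, among 21 tested genes. *cyp-35B2*, in the same stretch, was above all other strains with a difference of 3.35 and was not called. Whether these stretches lie in the regions that the study masked in XZ1516 was not tested.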

How the data were processed

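Poly(A) RNA of 609 cultures of 208 strains, wild strains and the laboratory strain N2, was sequenced. Per the labels and the methods, the authors trimmed reads with fastp 0.20.0 and quantified them with kallisto 0.44.0 against a transcriptome for each strain that also held consensus sequences of transposable elements. They deposited estimated counts and TPM per transcript, both not normalized between cultures. The table held 65173 transcripts and 157 elements, and 13 transcripts were not found in the annotation (WBcel235).

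Transcripts were summed to genes. Features with at least 5 normalized counts in all cultures of at least 10 strains were kept, which left 16762: 15604 protein-coding genes, 746 pseudogenes, 308 other genes and 104 elements. Estimated counts were summed per strain, rounded and fitted with edgeR 4.0.16 (TMM, quasi-likelihood F-test, R 4.3.3), XZ1516 against 207 strains, with Benjamini-Hochberg adjustment over all features. Deposited TPM were scaled by factors from 11187 genes and used as log2(TPM + 0.5). The tree was made with ape 5.8.1. Alternatives used DESeq2 1.42.0 and limma 3.58.1. The scripts were tested on simulated data.

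Named genes were the 12 protein-coding genes with the largest positive and the 12 with the largest negative difference whose cultures all lay outside the other strain means, the same among genes with a class name, up to 6 called elements and 6 called non-coding genes in each direction, up to 4 members of each list with the largest difference, and all toxin-antidote genes. Neighbours of named genes, members of groups of called genes, other called members of lists, and the nearly absent genes *drh-2*, *pud-1.1*, *bath-2*, *bath-4* and *bath-5* were named after their values were seen. The strain, the lists and the tests were chosen with earlier results of these data known. The labels give no replicate numbers, and the cultures are numbered in accession order. Cultures of a strain came from different plates, and p-values measure the spread between strains. Intervals and floors cover counting error only. Regions of extreme divergence and genotypes were not used here.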

Additional observations from a re-analysis of the deposited data

Results flagged for a closer look

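The filter on low counts left out 47 features that were above all other strain means on the log2 scale in every XZ1516 culture. Protein-coding genes or pseudogenes made up 40 of them. The 47 features were in none of the comparisons above and were not tested. *msp-52*, a pseudogene of the major sperm protein family, had a mean of 60.05 normalized TPM in XZ1516 (70.6, 47.02 and 62.6 in its cultures), and the highest other strain, ECA363, had 2.28. R01B10.2 had a mean of 51.15 TPM, against 20.75 in ECA363. *msp-32* had a mean of 26.06 TPM, with 42.7 in culture 1 and 16.23 in culture 3. Copies of *msp* genes are near-identical, and the values of *msp-52* and *msp-32* are uncertain. F46C3.7 had a mean of 23.15 TPM and K07F5.7 of 16.24, and ECA363 was the next strain for both, at 8.96 and 13.87 TPM. Cultures 2 and 3 of K07F5.7, at 13.69 and 13.58 TPM, lay below ECA363 in TPM and above it only by its mean on the log2 scale. The short non-coding genes Y53G8AR.10, ZK994.9 and Y46E12BL.6 had means of 32.15, 26.32 and 16.99 TPM, which rested on 9 to 16, 8 to 11.55 and 3 to 12 estimated counts per culture. The element PALTA4, of the Tc1 group, had 8.73, 17.97 and 13.2 TPM, and no other strain exceeded 4.07.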

How the results depend on the processing

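Under the alternatives 86 counts stayed within 1.5 times the reported one and 30 did not. With the DESeq2 Wald test 85 genes were called higher and 405 lower, in place of 148 and 230. With limma on cultures, where the spread is that among cultures of a strain, 1434 genes were higher and 1817 lower, and with the pool as a covariate 1549 and 2095. For elements, limma on cultures gave 23 higher and 20 lower, and 24 and 20 with the pool. For non-coding genes it gave 14 higher and 68 lower, and 18 and 71 with the pool. Limma on strain means called 5 elements higher and 1 lower, and 1 non-coding gene higher. The DESeq2 Wald test called 1 non-coding gene higher. With no filter 7 elements were higher and 1 lower, and 29 non-coding genes were higher. With the stricter filter 5 elements were higher and 0 lower by edgeR, where Mariner2 had an adjusted p of 0.0645 and CER12 did not pass the filter. With the cultures kept by the distance rule of the study 1 element was lower. Genes above all other strains numbered 145 with no filter. Genes expressed in XZ1516 with a median under the limit elsewhere numbered 26 with no filter, 10 with the stricter filter and 38 with a limit of 1 TPM. The causes were not tested.

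Leaving out each XZ1516 culture in turn gave 144 to 152 genes higher and 220 to 240 lower, 1 to 2 elements lower, and 1 to 3 non-coding genes higher and 13 to 17 lower. Leaving out culture 2 gave the lowest number of elements lower and of non-coding genes higher. For single elements and non-coding genes, 237 alternatives kept the call, 26 lost it and none reversed a direction. Differences of named genes moved by less than the spread between cultures in 974 alternatives and by more in 274, and none of the called ones changed sign. The median log2 fold change over all genes was −0.0765 with TMM and −0.0615 with DESeq2 size factors. No paired analysis was possible because the labels carry no replicate numbers, and the sequencing pool was fitted as a covariate instead. Genes at a few counts are limited by depth, most of all in culture 2.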
